A study of Rattus norvegicus with 2 samples.

Results

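Immediate early genes are those that a cell transcribes within minutes of a stimulus without first making new protein, and 10 of them were described here on 2 arrays of rat lung RNA: *Fos*, *Fosb*, *Jun*, *Junb*, *Atf3*, *Egr1*, *Ier2*, *Nr4a1*, *Dusp1* and *Zfp36*. A probe set, a group of short probes against one transcript, was taken when the platform annotation gave it exactly 1 gene symbol and that symbol was one of these. All 10 genes were found among the 14217 genes measured, with 14 of the 31042 non-control probe sets, and 12 of the 14 had a mean no lower than the median probe set. The members were selected on a measured value: *Fos* was chosen by its large difference between the arrays, which had been seen earlier. The other 9 were added as well-known members of the same class. The *Fos* difference is therefore a description and supports nothing by itself.

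The study asked how reproducible expression values are. Total RNA from lung of *Rattus norvegicus* was hybridised to Affymetrix whole-genome rat expression arrays, 1 array from each of 2 experimenters, here called experimenter 1 and experimenter 2 following the numbering of the sample titles. Both groups are lung with no treatment given in the labels. Strain, sex, age, the number of animals and whether both experimenters shared a lung or an RNA preparation are not stated. Each value is a log2 expression level from RMA, and a difference is experimenter 2 minus experimenter 1, so 1 unit is 2-fold. Because each experimenter contributed 1 array, there were no replicates and no test was possible, and none of the differences below can be set against a spread between replicates.

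Fos and Jun family proteins pair through leucine zippers to form the transcription factor AP-1, and Atf3 can join the same kind of pairs. Signals that reach the nucleus through mitogen-activated protein kinases act on serum response factor, its Elk partners and Creb, which switch on *Fos*, *Egr1* and their relatives. The response is then shut off by products of the same programme: Dusp1 dephosphorylates the kinases, and Zfp36 binds AU-rich sequences and hastens the decay of the mRNAs. In tissue such as lung the mRNAs are also known to rise during handling, mechanical stress and enzymatic dissociation, and they are short-lived.

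The promoter sequences of 3 members are shown because they carry the DNA element through which Creb proteins act on many immediate early genes, and because their genes cover the range of results below: *Dusp1*, whose probe sets disagreed, *Nr4a1*, which was among the higher members, and *Ier2*, which was nearly equal on both arrays. Each is the RefSeq window of assembly GRCr8 from 250 bases before to 50 after a transcript start, 5′ to 3′ on the strand of the gene, which is the plus strand for all 3. The *Dusp1* window is chr10:17184603-17184902, the *Nr4a1* window chr7:134259888-134260187 and the *Ier2* window chr19:40399123-40399422. Capitals mark each TGACG, the core of the cAMP response element, on either strand (CGTCA on the other).
Dusp1: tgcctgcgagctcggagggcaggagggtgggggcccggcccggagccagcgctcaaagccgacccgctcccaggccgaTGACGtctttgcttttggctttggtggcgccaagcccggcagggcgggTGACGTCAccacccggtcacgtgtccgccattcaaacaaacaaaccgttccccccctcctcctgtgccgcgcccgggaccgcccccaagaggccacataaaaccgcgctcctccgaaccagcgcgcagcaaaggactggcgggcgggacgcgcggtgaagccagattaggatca
Nr4a1: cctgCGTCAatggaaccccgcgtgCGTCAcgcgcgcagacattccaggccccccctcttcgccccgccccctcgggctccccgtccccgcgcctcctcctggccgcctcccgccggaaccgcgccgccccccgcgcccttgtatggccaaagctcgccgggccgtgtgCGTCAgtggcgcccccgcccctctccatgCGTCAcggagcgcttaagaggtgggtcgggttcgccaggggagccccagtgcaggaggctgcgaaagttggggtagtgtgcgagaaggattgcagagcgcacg
Ier2: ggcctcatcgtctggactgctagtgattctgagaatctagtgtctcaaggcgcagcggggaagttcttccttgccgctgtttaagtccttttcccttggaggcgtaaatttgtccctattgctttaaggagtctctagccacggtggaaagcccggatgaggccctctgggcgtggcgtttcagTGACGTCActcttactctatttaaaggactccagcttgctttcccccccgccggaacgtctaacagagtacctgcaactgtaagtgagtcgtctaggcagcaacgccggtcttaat

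The *Nr4a1* window held 4 separate matches to TGACG, which began 246, 226, 82 and 53 bases before the start. The *Dusp1* window held the full element TGACGTCA, which contains TGACG on both strands, 124 bases before the start and a further TGACG 172 bases before it. *Ier2* had the full element 66 bases before the start. Of the 10 members, 7 had a promoter in the table, and *Fos*, *Jun* and *Atf3* had no entry. TGACG was found in 5 of these 7 (*Junb*, *Egr1*, *Ier2*, *Nr4a1*, *Dusp1*), against 21.2% of all 33469 promoter windows, and TGACGTCA in 2 of 7 against 1.83%. The CArG box, the serum response element core to which serum response factor binds, was found in *Egr1* (2 matches, 105 and 83 bases before the start) and *Zfp36* (32 bases before it), against 1.64% of windows. The TATA sequence TATAAA was found in 2 of 7 members, *Fosb* and *Junb*, against 14.2% of windows. The *Junb* match lay on the strand of the gene, 49 bases before the start. That of *Fosb* lay on the opposite strand, 180 bases before it. The Sp1 sequence GGGCGG was found in 3 of 7 (*Nr4a1*, *Dusp1*, *Zfp36*), against 33.1%. The AP-1 sequence TGANTCA, where N is any base, was found in 0 of 7, against 7.33%. Both strands were searched for each sequence, and a match describes letters in the window, not a bound site.

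*Fos* was chosen for its large difference, so the percentile and rank of that difference below describe the choice. It had the largest difference of any member. Its brightest probe set, 1375043_at, measured 6.92 for experimenter 1 and 7.89 for experimenter 2. These levels lay at percentiles 57.6 and 71.1 of all probe sets on the respective arrays. The difference of 0.97, or 1.96-fold, was at percentile 99.5 among probe sets of like mean level (10 bins of equal size). It ranked 38th from the top of 14217 genes when each gene was represented by its brightest probe set, and 27th among the 9558 genes with a mean no lower than the median probe set. A second *Fos* probe set, 1371283_at, measured 3.84 and 3.87, at percentiles 16.3 and 17.7. It did not show the difference, at 0.029, and it lay below the lower quartile of mean level over all probe sets (4.40). RMA gives no detection call, so whether this second probe set could respond to *Fos* mRNA in these samples is unknown.

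**Figure D1:**
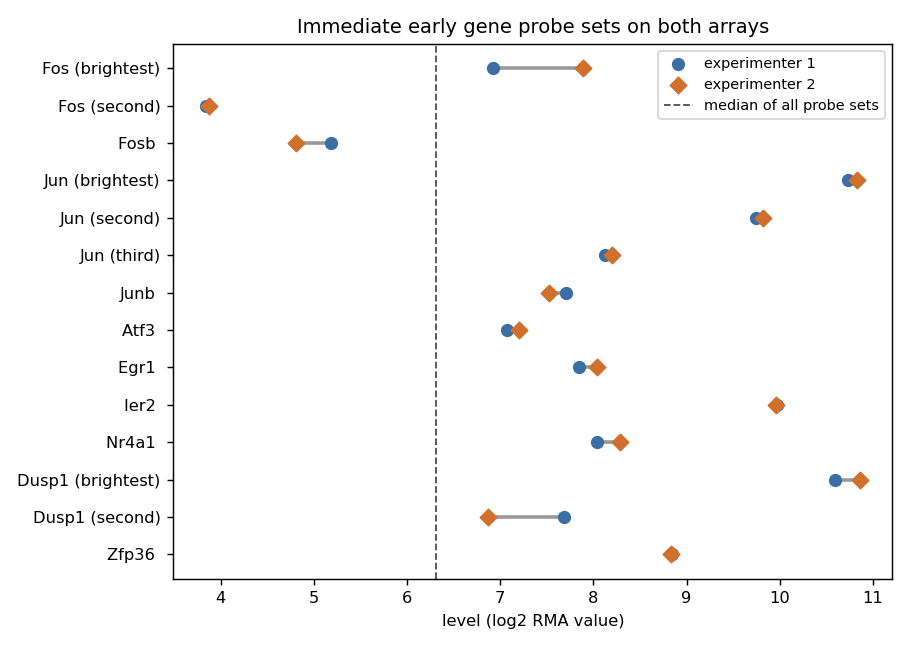
Level (log2 RMA value, horizontal axis) of each of the 14 probe sets of the 10 genes for experimenter 1 (circles) and experimenter 2 (diamonds), joined by a line. The brightest *Fos* probe set is farther to the right for experimenter 2 (7.89 against 6.92) and the second *Dusp1* probe set farther to the left (6.86 against 7.68), while the symbols of *Ier2* and *Zfp36* overlap.

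The other AP-1 subunits did not repeat the *Fos* difference. *Fosb*, the closest relative of *Fos* in the list, was lower for experimenter 2, at 5.18 and 4.802, a difference of -0.38 and the most negative of any member by its brightest probe set. Both values were under the median of all probe sets (6.31). *Junb*, a Jun family subunit often induced together with *Fos*, was also lower for experimenter 2, at 7.70 and 7.52 (difference -0.18). *Atf3*, a stress-induced factor of the ATF/CREB family, was slightly higher for experimenter 2, at 7.07 and 7.20 (difference 0.13).

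*Jun*, the main dimer partner of *Fos*, had 3 probe sets and they gave nearly the same small difference. The brightest, 1389528_s_at, measured 10.73 and 10.83 (difference 0.10), the second, 1369788_s_at, 9.75 and 9.82 (0.075), and the third, 1374404_at, 8.13 and 8.20 (0.072). All 3 were a little higher for experimenter 2, and their differences lay within 0.032 of each other although their levels differed by more than 2 units. The first and second carry the suffix that the array maker gives to probe sets shared between transcripts, and the brightest and the third were designed from the same source sequence, so the 3 are not independent measurements.

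The other transcriptional regulators were equal or slightly higher for experimenter 2. *Egr1*, a zinc finger factor, measured 7.84 and 8.04 (difference 0.20), and *Nr4a1*, the orphan nuclear receptor Nur77, 8.04 and 8.29 (0.25). Among probe sets of like level these differences lay at percentiles 85.1 and 88.1. *Ier2*, a nuclear protein named for its early response, measured 9.97 and 9.96, a difference of -0.0056 that turned to between 0.0093 and 0.038 under 3 other normalizations of the columns. Each of these genes had 1 probe set.

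The feedback regulators gave the clearest disagreement within a gene. The brightest probe set of *Dusp1*, the phosphatase that inactivates p38, JNK and ERK kinases, was 1368146_at and measured 10.59 and 10.86. It was higher for experimenter 2 by 0.26, at percentile 90.0 among probe sets of like level. The second *Dusp1* probe set, 1368147_at, measured 7.68 and 6.86. It was lower for experimenter 2 by 1.76-fold (difference -0.82), at percentile 0.58 among probe sets of like level, although both its values were above the median of all probe sets. Of 31042 probe sets, 159 had a difference this low or lower. *Zfp36*, which encodes the mRNA decay factor tristetraprolin, measured 8.84 and 8.83, a difference of -0.011 that turned to between 0.020 and 0.044 under the same 3 normalizations.

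**Figure D2:**
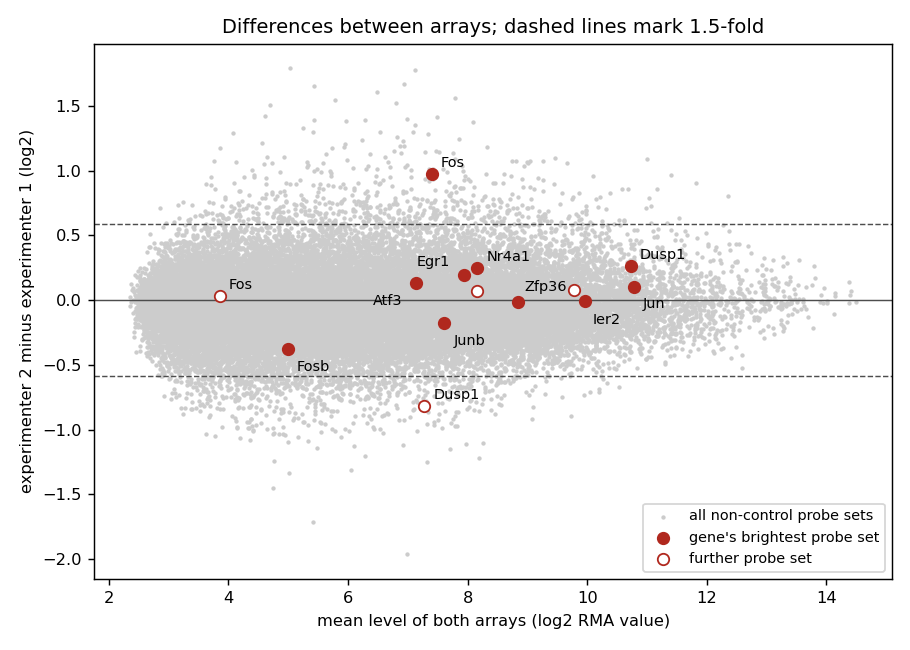
Difference (experimenter 2 minus experimenter 1, log2, vertical axis) against mean level of both arrays (log2 RMA value) for all 31042 non-control probe sets (grey), with the brightest probe set of each of the 10 genes (filled) and the 4 further probe sets of *Fos*, *Jun* and *Dusp1* (open). *Fos* lies above the upper dashed line of 1.5-fold and the second *Dusp1* probe set below the lower one, and the other 12 lie between the lines.

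By brightest probe sets, 6 of the 10 genes were higher for experimenter 2 (*Fos*, *Jun*, *Atf3*, *Egr1*, *Nr4a1*, *Dusp1*) and 4 were lower (*Fosb*, *Junb*, *Ier2*, *Zfp36*), where 41.1% of all genes were higher and 58.7% lower. With the sign changes of *Ier2* and *Zfp36*, 8 were higher under each of the 3 other normalizations, where the share of all genes higher was 47.5% (median centring), 50.3% (loess) and 48.2% (quantile). At least 1.5-fold higher was 1 of 10, *Fos*, against 1.93% of all genes, and since *Fos* was chosen for its difference that count says nothing more. At least 1.5-fold lower were 0 of 10 (1.31% of all genes), and 0 of 10 reached 2-fold in either direction (0.232% of all genes higher, 0.0422% lower), although *Fos* did reach it, at 1.01 to 1.03, under the 3 other normalizations. The median difference of the 10 genes was 0.12, and it was 0.10 over the 9 genes without *Fos*, against -0.049 over all genes. The mean was 0.13, and 0.041 without *Fos*. Leaving *Fos* aside, the differences of the other 9 genes ran from -0.38 (*Fosb*) to 0.26 (*Dusp1*). The *Fos* difference was thus not shared in size by any other member, and 5 of the other 9 had its direction.

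Of the 3 members with more than 1 probe set, *Jun* kept its difference in every probe set, *Fos* had a difference near 0 in its second, and *Dusp1* reversed. Among the 4 further probe sets, 3 had the sign of the brightest (2 of *Jun* and the 1 of *Fos*), and 0 of 4 were at least 1.5-fold higher, against 2.05% of all probe sets, while 1 of 4, that of *Dusp1*, was at least 1.5-fold lower, against 2.3%. Over the 4525 genes with at least 2 probe sets, 53.3% had the same sign in the brightest and the second. The gap between the differences of these 2 probe sets was 0.029 for *Jun*, 0.94 for *Fos* and 1.08 for *Dusp1*, where the median gap was 0.25. A gap at least as wide as that of *Fos* was found for 99 genes (2.19%), and as wide as that of *Dusp1* for 52 genes (1.15%). Among the 2094 genes whose second probe set was at or above the median level, as that of *Dusp1* was, 26 (1.24%) had a gap at least as wide. There were 97 genes whose brightest probe set was, like that of *Fos*, at least 1.5-fold higher for experimenter 2. Their second probe sets were higher for 39 and at least 1.5-fold higher for 6, with a median difference of -0.042. Of these 97 second probe sets, 16 lay below the lower quartile of mean level, as that of *Fos* did.

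**Figure D3:**
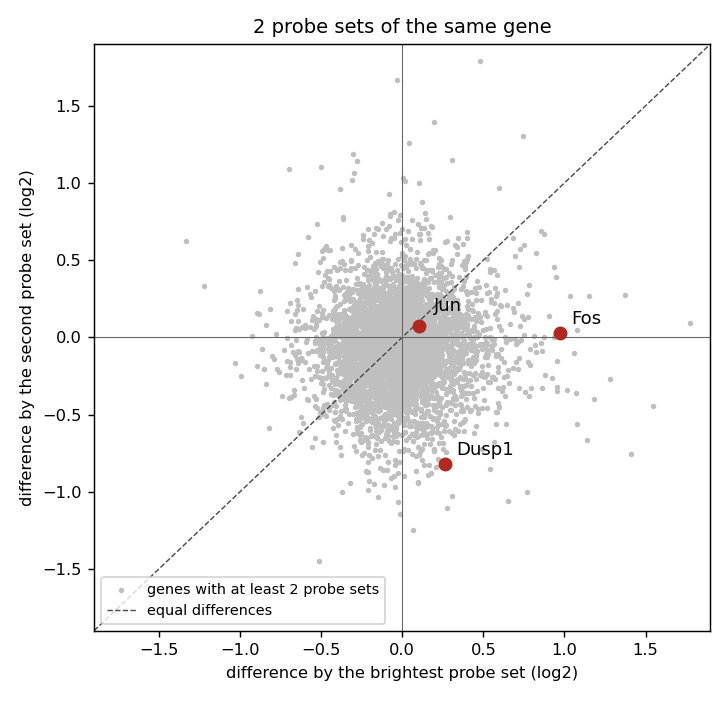
Difference (experimenter 2 minus experimenter 1, log2) by the second brightest probe set of a gene (vertical axis) against that by its brightest (horizontal axis), for 4525 genes (grey), with *Fos*, *Jun* and *Dusp1* in red. *Jun* lies near the dashed line of equal differences, *Fos* near the horizontal line of no difference at 0.97 and 0.029, and *Dusp1* below the horizontal line at 0.26 and -0.82.

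Expressed as the distance between 2 probe sets on the same array, the brightest *Dusp1* probe set was 2.91 above the second for experimenter 1 and 3.995 above it for experimenter 2, and the brightest *Fos* probe set was 3.08 and 4.02 above its second. The control probe sets for beta-actin, which read the 3′ and the 5′ end of one mRNA, also had a wider gap for experimenter 2 (2.15 and 2.71). Those of Hexokinase had gaps of 1.13 and 1.36, whereas those of GAPDH had 0.30 and 0.26. The 3′ probe set of beta-actin differed by 0.0082 and the 5′ probe set by -0.56. Where the *Fos* and *Dusp1* probe sets lie along their transcripts is not given in the sources used here, and the part of RNA shortening or labelling in these differences was not tested.

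The genes nearest to *Fos* in their values on the 2 arrays, by Euclidean distance over 14216 other genes represented by their brightest probe sets, were *RT1-CE10*, a class I histocompatibility gene, at 6.95 and 7.88 (distance 0.029), *Zmat1*, a zinc finger gene, at 6.92 and 7.93 (0.039), and *Gpm6a*, a membrane glycoprotein, at 7.03 and 7.88 (0.11). None of the 3 was in a list of immediate early or pathway genes used here. Likeness over 2 values is a weak description.

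Lists of 156 further genes, of the pathway and of heat shock, gave a wider view, with 138 measured. Of the 138, 7 were heat shock genes. At least 1.5-fold higher was 1 of 138 and lower were 2, against 1.93% and 1.31% of all genes, and 0 of 138 reached 2-fold. Their median difference was -0.042, near the -0.049 of all genes. Under median centring and after removal of a loess trend 4 of 138 were at least 1.5-fold higher, and after quantile normalization 3, with 2 lower in each case. The share of all genes at least 1.5-fold higher under these settings was 2.31%, 2.54% and 2.41% in the same order. Of the 50 listed genes with at least 2 probe sets, 24 (48%) had the same sign in the brightest and the second, against 53.3% of all such genes.

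Among the other AP-1 family members 14 of 16 were measured and 0 passed 1.5-fold in either direction, with a median of -0.058. For experimenter 2, 6 of 14 were higher, against 41.1% of all genes. Under the 3 other normalizations 6 or 7 of 14 were higher, as were 47.5% to 50.3% of all genes. *Jund*, the Jun protein that is expressed constitutively, measured 11.15 and 11.36 (0.21), while its second probe set measured 5.42 and 4.98 (-0.44) and the third 3.98 and 4.12 (0.14). *Maf* measured 9.37 and 9.71 (0.33), its second probe set 7.48 and 7.32 (-0.15) and the third 5.17 and 5.16 (-0.015). *Mafg*, a small Maf protein, measured 8.48 and 7.996 (-0.49), with 6.67 and 6.70 by its second. *Jund*, *Maf* and *Mafg* thus changed sign between their 2 brightest probe sets. A change of sign was common, since only 53.3% of the 4525 genes with at least 2 probe sets kept it. The second difference of *Mafg* was small (0.028), and the second *Jund* probe set lay below the median level. *Atf4*, a factor of the integrated stress response, measured 11.41 and 11.20, *Atf5* 9.75 and 9.52, and *Mafk* 8.75 and 8.57. *Jdp2*, a repressor that pairs with Jun, measured 6.78 and 6.71, and *Batf*, a leukocyte AP-1 factor, 6.38 and 6.31. These 5 were all lower for experimenter 2 by 0.070 to 0.23. The Fos-related genes *Fosl1* (5.02 and 4.97) and *Fosl2* (5.08 and 5.48), named after their values were seen, were below the median level.

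Of the list of other immediate early transcription factors, which also holds other regulators, 23 of 24 were measured. Of these, 7 were higher and 16 lower, and 0 passed 1.5-fold, with a median of -0.091. Of all genes 41.1% were higher and 58.7% lower. Under each of the 3 other normalizations 11 of the 23 were higher, as were 47.5% to 50.3% of all genes. *Btg1*, an antiproliferative cofactor and the member with the highest mean, measured 11.98 and 12.56. Its difference of 0.58 (1.498-fold) lay just under the 1.5-fold bound, and it passed the bound under median centring (0.62) and after loess (0.59). The relatives of *Egr1* and *Nr4a1* and the clock gene *Per1*, which also responds to acute stimuli, were named after their values were seen. *Egr2* measured 7.60 and 7.57, *Egr3* 5.54 and 5.20 and *Egr4* 4.93 and 5.05. *Nr4a2* measured 6.55 and 6.58, *Nr4a3* 5.05 and 5.04 and *Per1* 8.44 and 8.27.

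Of the other immediate early enzymes and signalling genes 29 of 30 were measured, with 16 higher, 13 lower, 0 past 1.5-fold and a median of 0.048. Of all genes 41.1% were higher and 58.7% lower. Under each of the 3 other normalizations 17 of the 29 were higher, as were 47.5% to 50.3% of all genes. *Ccn2*, the matricellular connective tissue growth factor, had the highest mean and measured 11.96 and 12.37 (0.41). *Ptgs2*, the inducible cyclooxygenase, and *Plk3*, a polo-like kinase, had the values nearest the bound on either side. They were named after these values were seen, and both had a mean below the median level. *Ptgs2* measured 5.45 and 6.004 (0.55, and between 0.588 and 0.604 under the 3 other normalizations) and *Plk3* 6.28 and 5.72 (-0.56). The listed phosphatases related to *Dusp1*, also named after their values were seen, measured 7.63 and 7.32 for *Dusp2*, 5.23 and 5.38 for *Dusp4*, 7.30 and 7.58 for *Dusp5*, 10.75 and 10.98 for *Dusp6* and 5.73 and 5.77 for *Dusp8*.

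Upstream of the immediate early genes, 13 of 20 listed kinases were measured, with 3 higher, 10 lower and a median of -0.087. Of all genes 41.1% were higher and 58.7% lower. Under median centring and loess 5 of 13 were higher and under quantile normalization 4. The share of all genes higher under these settings was 47.5%, 50.3% and 48.2% in the same order. At least 1.5-fold lower was *Map2k6*, a kinase that activates p38, at 7.51 and 6.85 (-0.66), and 0 of 13 were 1.5-fold higher. *Map2k3*, another p38 activator and the kinase with the highest mean, measured 10.18 and 10.08. Of 18 upstream transcription factors 17 were measured, with a median of -0.014 and 0 past 1.5-fold. *Mef2a*, a MADS-box factor with the highest mean of these, measured 11.40 and 11.16 by its brightest probe set (-0.24), 10.85 and 10.93 by its second (0.079), 10.70 and 10.82 by the third (0.13) and 9.08 and 8.61 by the fourth (-0.47).

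Downstream, 22 of 24 delayed response and AP-1 target genes were measured, with 8 higher, 14 lower and a median of -0.072. Of all genes 41.1% were higher and 58.7% lower. Under the 3 other normalizations 10 or 11 of the 22 were higher, as were 47.5% to 50.3% of all genes. *Cxcl2*, a neutrophil chemokine, was 1.5-fold or more higher at 4.23 and 5.04 (0.82), and *Mmp3*, a matrix metalloproteinase, 1.5-fold or more lower at 3.82 and 3.12 (-0.70); both lay below the median level and were named after their values were seen. *Vegfa*, a vascular growth factor and the brightest of the list, measured 11.97 and 11.82 (-0.15), and 9.73 and 9.27 by its second probe set (-0.46). Genes of AU-rich mRNA decay, measured for 13 of 14, had a median of -0.041 with 0 past 1.5-fold, and *Zfp36l1*, the relative of *Zfp36*, measured 12.39 and 12.41. Heat shock genes, chaperones induced by protein damage, had a median of -0.12 over 7 of 10 measured, with 0 past 1.5-fold. *Hspb1*, a small heat shock protein, measured 12.18 and 12.02, and *Hsph1*, named after its value was seen, 8.34 and 8.90 (0.56, which passed 1.5-fold under the 3 other normalizations).

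**Figure D4:**
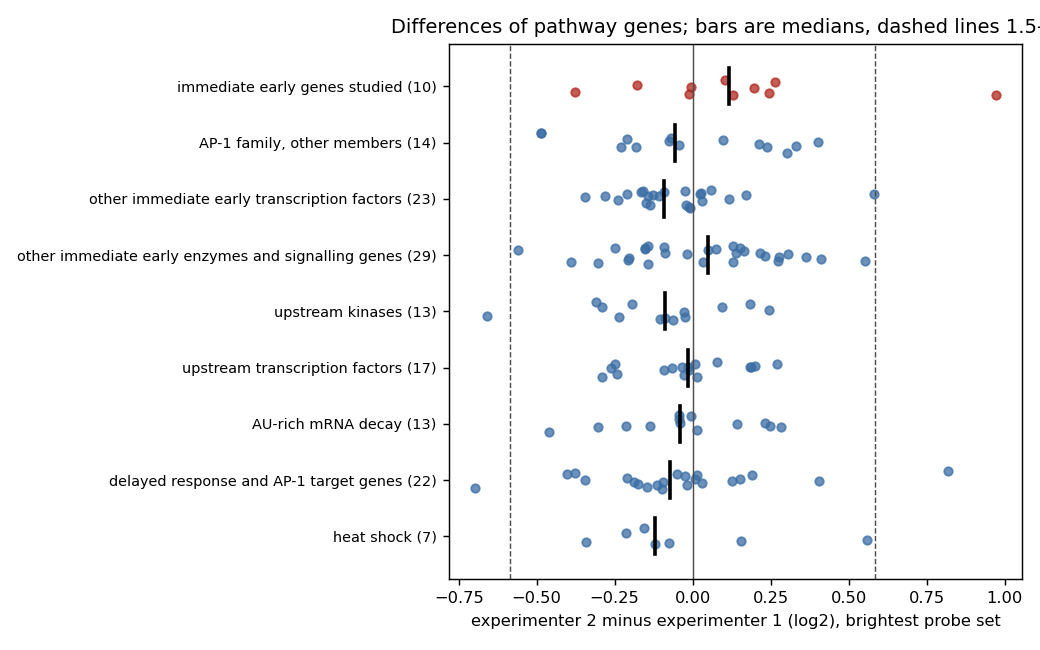
Difference (experimenter 2 minus experimenter 1, log2, horizontal axis) of each measured gene by its brightest probe set, for the 10 immediate early genes (red) and 8 lists of related genes (blue, number measured in brackets), with the median of each list as a black bar; the vertical scatter within a list has no meaning. The medians lie between -0.12 and 0.12, and the points beyond the dashed 1.5-fold lines are *Fos* and *Cxcl2* to the right and *Map2k6* and *Mmp3* to the left.

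The tissue label was checked against 14 lung markers, of which 13 were measured. All 13 lay at or above percentile 74.0 of both arrays, among them *Sftpc* of alveolar type 2 cells (14.39 and 14.36) and *Scgb1a1* of club cells (14.37 and 14.44), and 0 of 13 passed 1.5-fold in either direction. Of 10 markers of other tissues and cells 8 were measured and 0 passed 1.5-fold. The highest was *Epcam*, an epithelial adhesion molecule that lung epithelium also carries, at 11.02 and 11.08. The others, given with *Sftpc* after their values were seen, were *S100a8* of neutrophils (9.73 and 9.88), *Cd3e* of T cells (7.89 and 7.76), *Cd79b* of B cells (7.39 and 7.23), *Msln* of mesothelium (7.57 and 7.66), *Wt1* (3.80 and 4.11), *Alb* of liver (5.41 and 5.04) and *Myh6* of heart muscle (3.66 and 3.36). In a bulk sample, fewer cells of a type and less RNA per cell cannot be told apart, and the cells in which *Fos* was transcribed are unknown.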

How the data were processed

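The authors deposited log2 RMA values, per the submitters' processing notes, which name RMA without a version. RMA corrects background, forces arrays to a common distribution and summarises each probe set. The log base, not stated, was read as 2 because values end near 14.5. Neither the annotation nor the set of arrays normalized jointly is given in the sources used here. The depth of an array is not a count, and the number of arrays limits the precision.

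After removal of 57 controls from 31099 probe sets, 31042 were left, and 20826 of them had 1 gene symbol, 436 several and 9780 none. Symbols were updated by Entrez identifier through RefSeq's GRCr8 gene table (20758 matched). Where a gene had several probe sets, the brightest by mean stood for it.

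The members and lists were chosen with earlier results of these data known. Named genes were all members and, of each list, the highest mean, up to 3 genes per direction past 1.5-fold at or above the median level, AP-1 relatives at that level, and the 3 nearest to *Fos*. Others are marked as chosen after their values were seen and are given by their brightest probe set only.

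Alternatives were median centring, loess (fraction 0.3), quantile normalization, other probe set choices, filters on level and thresholds. Scripts used Python 3.11.15, numpy 2.4.6, pandas 2.3.3, statsmodels 0.14.6 and matplotlib 3.10.9, and were tested on simulated data.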

Additional observations from a re-analysis of the deposited data

How the results depend on the processing

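No paired analysis was possible because there was 1 array a group, and leaving out an array would leave no comparison. The *Fos* difference was between 1.01 and 1.03 under median centring, loess and quantile normalization, but 0.50 with the mean over its probe sets and 0.029 with the second probe set. The number of members at least 1.5-fold higher was 1, and it was 0 with the mean over probe sets, with the second probe set and at a 2-fold threshold. It was also 0 in the upper 25% of level, where 4 members remained. That filter removed *Fos* itself (mean 7.41, upper quartile 8.20), so this 0 was fixed in advance and says nothing about *Fos*. The number of members higher was 6, and 2 of those 4 in the upper 25% of level. The median of the members, 0.12 as reported, ran from 0.012 with second probe sets to 0.16 after loess. In the setting with second probe sets, the 7 members with only 1 probe set kept it, and 3 members changed. Over all genes, 275 were at least 1.5-fold higher and 186 lower, against 361 and 128 after loess, 343 and 139 after quantile normalization and 329 and 149 after centring. *Fosb* and the second *Fos* probe set lay below the median level, and no detection calls were used here.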
